A study of Mus musculus with 6 samples.

Results

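The 7 hippocampal genes of inhibitory transmission examined were Gad1, Gad2, Slc32a1, Slc6a11, Abat, Slc12a2 and Slc12a5, together with the ratio of Slc12a5 to Slc12a2. All lie on the plus strand, and positions are on GRCm38. They were chosen by gene symbol, and all 7 of 7 symbols were found among the 24935 genes of the deposited table. The RNA came from the left hippocampus of C57BL/6 mouse pups at postnatal day 14 (P14), in polyA-selected, strand-specific libraries of paired reads. In the study, pups of both sexes were kept with their dams either in room air (air-exposed, 3 libraries) or in 85% oxygen at normal pressure (hyperoxia-exposed, 3 libraries) from P2 to P14. The labels give 1 animal per library and no litter, so the spread within a group is the spread between these animals. The pups shared the oxygen with the dams, so exposure of the pup and of the dam cannot be told apart.

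Neurons that release gamma-aminobutyric acid (GABA) make it from glutamate with a pair of decarboxylases, GAD67 (Gad1), found throughout the cell, and GAD65 (Gad2), concentrated at terminals. The vesicular transporter VGAT (Slc32a1) loads it into synaptic vesicles. After release, GABA is cleared by membrane transporters, among them GAT3 (Slc6a11) of astrocytes, and is broken down by GABA transaminase (Abat). What GABA does to the receiving neuron depends on chloride: NKCC1 (Slc12a2) brings chloride in, KCC2 (Slc12a5) takes it out, and in the postnatal rodent hippocampus rising KCC2 turns GABA responses from depolarizing towards hyperpolarizing. The ratio of the pair is therefore a customary index of this developmental switch.

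The promoters of the genes of GABA synthesis and of chloride export are shown because the counts pool every start site of a gene. RefSeq promoters on GRCm38.p6 were matched for 5 of the 7 genes (Gad1, Gad2, Slc32a1, Slc6a11 and Slc12a5), and Slc12a5 has 2, of which the downstream one lies within the gene, as does the Gad1 start. Each window holds the 250 bases before a start site, and only its longest stretch outside the exons of the gene is printed, on the plus strand. Capitals mark CACGTG, the E-box bound by USF1.
Gad1 promoter, chr2:70561879-70562041: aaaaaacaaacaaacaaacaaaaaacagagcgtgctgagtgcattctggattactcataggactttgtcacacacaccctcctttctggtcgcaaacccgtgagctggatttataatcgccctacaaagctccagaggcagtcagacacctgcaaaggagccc
Gad2 promoter, chr2:22622077-22622204: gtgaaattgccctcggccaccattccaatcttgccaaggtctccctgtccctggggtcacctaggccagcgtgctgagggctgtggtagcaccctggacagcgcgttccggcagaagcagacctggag
Slc12a5 upstream promoter, chr2:164960596-164960801: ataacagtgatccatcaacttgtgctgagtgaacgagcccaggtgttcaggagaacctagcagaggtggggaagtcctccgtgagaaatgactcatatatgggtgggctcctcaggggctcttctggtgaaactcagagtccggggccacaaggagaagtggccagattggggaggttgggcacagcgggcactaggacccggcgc
Slc12a5 downstream promoter, chr2:164967738-164967982: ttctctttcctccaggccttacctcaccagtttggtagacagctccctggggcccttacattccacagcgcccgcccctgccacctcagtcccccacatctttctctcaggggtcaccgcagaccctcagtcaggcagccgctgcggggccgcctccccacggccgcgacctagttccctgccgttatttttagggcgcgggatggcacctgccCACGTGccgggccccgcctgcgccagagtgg
The letters CACGTG stood once in these windows, in the downstream Slc12a5 promoter, starting 36 bases before the start site, and in 6.02% of all 32851 RefSeq promoter windows of the same length. Neither the EGR letters GCGTGGGCG and GCGGGGGCG nor the cyclic AMP response element TGACGTCA, on both strands, were in the windows of the 5 matched genes. They were in 3.06% and 1.55% of all windows.

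None of the 7 genes differed between hyperoxia- and air-exposed mice at the threshold used, an adjusted p under 0.05 over all 17778 genes tested. Hyperoxia was set against air with limma, its variance trended on the mean, from log2 of the deposited normalized count plus 1, with Benjamini-Hochberg adjustment. All 7 genes passed the filter on low values, 10 on average across the 6 libraries. In the same fit 5425 genes were called (30.5% of those tested), 2643 of them higher (14.9%) and 2782 lower (15.6%) in hyperoxia. At an unadjusted p under 0.05, limma gave 3 of the 7 genes (Gad2, Slc6a11 and Abat) and 42.7% of all genes tested. On reads recovered from the table, edgeR called 0 of the 7 (30.9% of all genes tested) and DESeq2 called 1 (31.6% of all). The median log2 fold change of the 7 genes was 0.17, against −0.01 over all genes tested. Of the 3701 tested genes whose mean lay in the range of these 7, 39.9% were called. The libraries held 30384052 to 38746972 reads on genes, and 1609 to 13983 reads fell on each of the 7 genes in each library. Which group a library belongs to rests on the names of the deposited columns, with no targeted gene to check them, so that swapped names would turn every direction given here. Libraries are numbered as those columns are, and the numbers name no animal. Hyperoxia library 2 stood apart from the rest of its group on the second principal component (19.5% of the variance, after 52.7% for the first), and values without it are given for the 7 genes where they change a call.

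**Figure D1:**
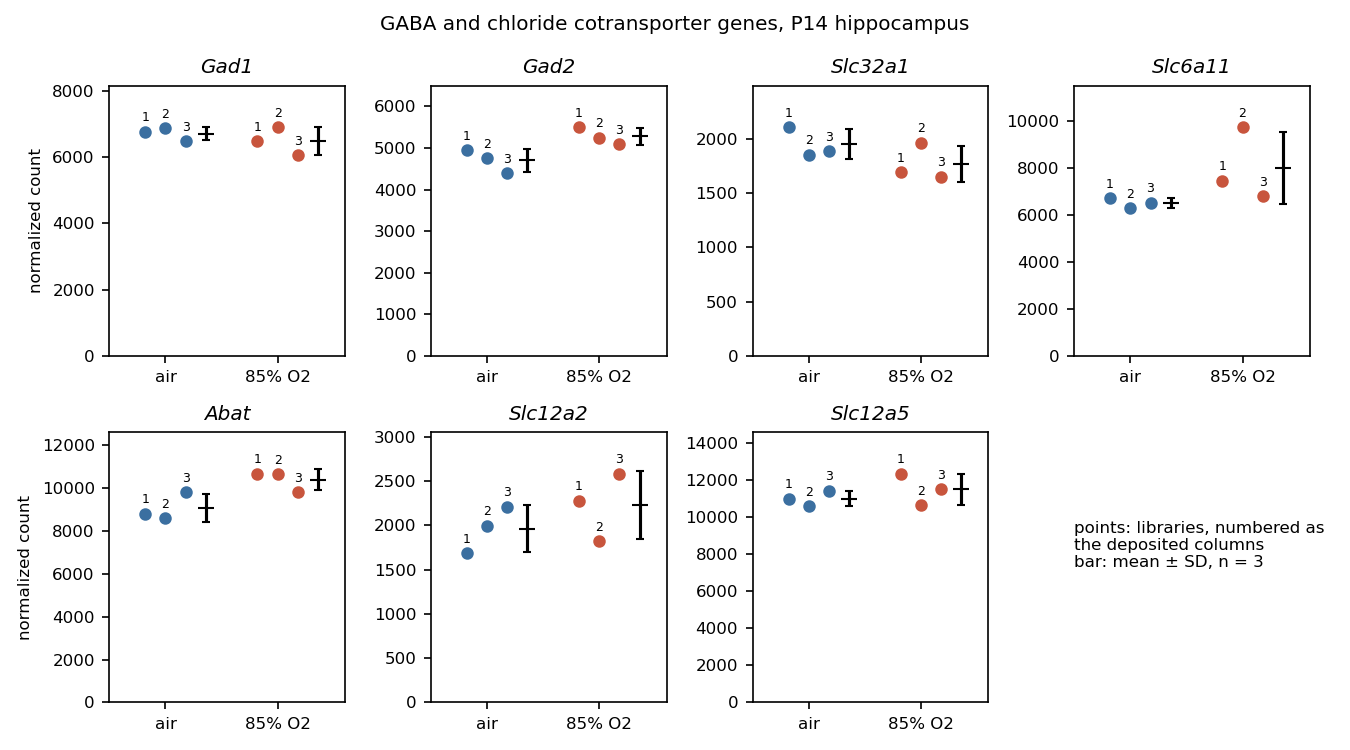
Normalized count of each of the 7 genes (vertical axis, from 0) in the air and 85% oxygen libraries, with points for single libraries numbered as the deposited columns and bars for the mean ± SD (n = 3). The groups separate without overlap in Gad2 and Slc6a11 only, and hyperoxia library 2 stands at 9731 in Slc6a11.

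Of the decarboxylases, Gad1 (ENSMUSG00000070880.10, chr2:70553072-70602014) was the more abundant per kilobase in air. Its normalized count was 6757, 6870 and 6471 in the air libraries, in the order 1 to 3, and 6469, 6895 and 6048 in the hyperoxia libraries. The groups overlapped, with hyperoxia library 2 the highest and hyperoxia library 3 the lowest of all. The means were 6699 ± 206 (SD, n = 3) in air-exposed and 6471 ± 423 in hyperoxia-exposed mice. Hyperoxia minus air was −0.05 on the log2 scale (SE 0.07, limma adjusted p = 0.62), with a 95% interval from −0.21 to 0.11, that is from 0.862 to 1.08 times the air level. The antisense gene Gad1os overlaps the span of Gad1 but shares 0 exon bases with it in the annotation.

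Gad2 (ENSMUSG00000026787.3, chr2:22622205-22693874) gave 4950, 4757 and 4396 in air libraries 1 to 3 and 5502, 5244 and 5089 in hyperoxia. Every hyperoxia library was above every air library, which held for 46.1% of all genes tested in one direction or the other. The mean was 4701 ± 281 (SD, n = 3) in air-exposed and 5278 ± 209 in hyperoxia-exposed mice. Hyperoxia minus air was 0.17 on the log2 scale (SE 0.07, limma adjusted p = 0.11), short of the threshold, although its unadjusted 95% interval ran from 0.01 to 0.33. When trends on transcript length and GC content were removed within libraries, the estimate was −0.02 (adjusted p = 0.85), so its direction depended on that step.

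Slc32a1 (ENSMUSG00000037771.11, chr2:158610767-158615748) is a short gene of 2 exons. Its counts were 2109, 1856 and 1888 in air libraries 1 to 3 and 1695, 1964 and 1653 in hyperoxia. Hyperoxia libraries 1 and 3 lay below every air library, and hyperoxia library 2 lay between air libraries 3 and 1. The mean was 1951 ± 137 (SD, n = 3) in air-exposed and 1771 ± 169 in hyperoxia-exposed mice. Hyperoxia minus air was −0.14 on the log2 scale (SE 0.09, limma adjusted p = 0.26, 95% interval −0.34 to 0.06). Without hyperoxia library 2, when 43.7% of all genes were called, the change was −0.22 and was called (limma adjusted p = 0.031, range 0.031 to 0.62 over the 16 alternatives).

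Because the enzymes and the vesicular transporter work in one cell type, their ratios within a library were also examined, a choice made after the values were seen. The ratio of Gad2 to Gad1 was 0.733, 0.692 and 0.679 in air libraries 1 to 3 and 0.851, 0.761 and 0.841 in hyperoxia, without overlap. Its log2 difference of 0.22 (SE 0.06) had an exact two-sided permutation p = 0.1, the smallest that 3 against 3 libraries can give. After the length and GC correction, tried after the values were seen, the Gad2 to Gad1 ratio, hyperoxia minus air, was 0.06 on the log2 scale (exact permutation p = 0.3). The ratio of Slc32a1 to Gad1 was 0.312, 0.27 and 0.292 in air and 0.262, 0.285 and 0.273 in hyperoxia. These groups overlapped, and the log2 difference was −0.09 (SE 0.07, exact permutation p = 0.3), which the same correction turned to 0.04 (Slc32a1 to Gad1 ratio, hyperoxia minus air). In a bulk sample, fewer cells of a type and less RNA per cell cannot be told apart.

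Of the genes of GABA clearance and breakdown, Slc6a11 (ENSMUSG00000030307.8, chr6:114131241-114249952) gave 6707, 6277 and 6519 in air libraries 1 to 3 and 7461.5, 9731 and 6799 in hyperoxia. All hyperoxia libraries were above all air libraries, and hyperoxia library 2 stood well above the rest. The mean was 6501 ± 216 (SD, n = 3) in air-exposed and 7997 ± 1538 in hyperoxia-exposed mice. The difference, hyperoxia minus air, was 0.28 on the log2 scale (SE 0.12, limma adjusted p = 0.10), with an unadjusted 95% interval from 0.02 to 0.55. The estimate fell to 0.13 without hyperoxia library 2 (adjusted p = 0.11) and was 0.39 without hyperoxia library 3 (adjusted p = 0.021, with 28.2% of all genes called). It was also called by DESeq2 (adjusted p = 0.048) and after the length and GC correction (adjusted p = 0.043, with 34.7% of all genes called), in a range of 0.021 to 0.25 over the 16 alternatives.

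Abat (ENSMUSG00000057880.12, chr16:8513429-8621568) gave 8813, 8599 and 9821 in air libraries 1 to 3 and 10673, 10654 and 9813 in hyperoxia. Only library 3 of each group kept the groups from separating, where the air library stood just above the hyperoxia library. The mean was 9077 ± 653 (SD, n = 3) in air-exposed and 10379.92 ± 491 in hyperoxia-exposed mice. The difference, hyperoxia minus air, was 0.19 on the log2 scale (SE 0.08, limma adjusted p = 0.084), with an unadjusted 95% interval from 0.02 to 0.37. Among the 16 alternatives it was called under quantile normalization alone, at 0.24 (adjusted p = 0.036, range 0.036 to 0.28, with 30.2% of all genes called).

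**Figure D2:**
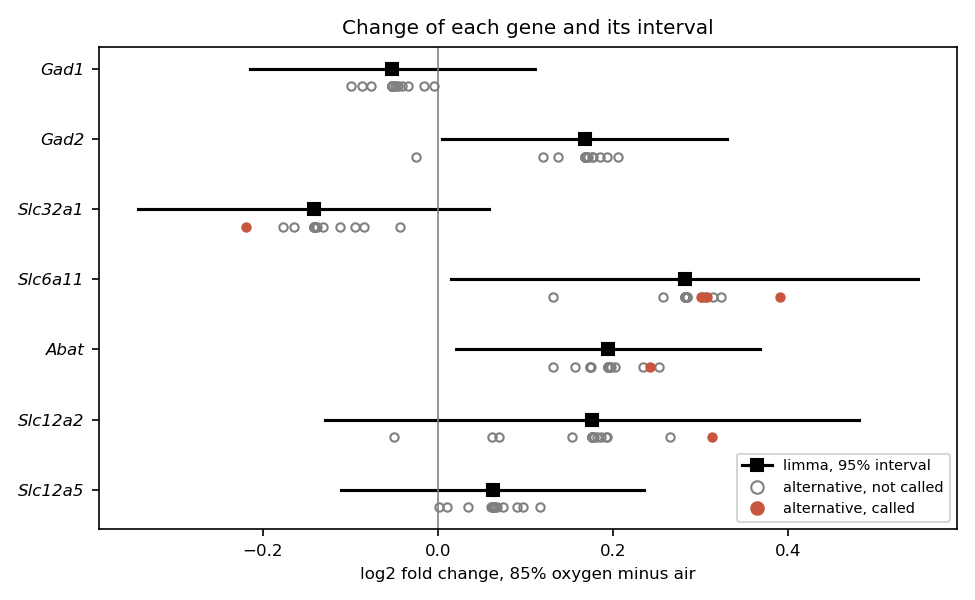
Log2 fold change of each gene, 85% oxygen minus air (horizontal axis), with squares and lines for the limma estimate and its 95% interval and circles below for the 16 processing alternatives, filled where the gene was called. The intervals of Gad1, Slc32a1, Slc12a2 and Slc12a5 span 0, and filled circles are seen for Slc32a1, Slc6a11, Abat and Slc12a2.

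Of the chloride cotransporters, Slc12a5 (ENSMUSG00000017740.17, chr2:164960802-164999731, 29 merged exons) had normalized counts of 11003, 10591 and 11436 in air libraries 1 to 3 and 12360.4, 10664 and 11523 in hyperoxia. The groups overlapped, with hyperoxia library 1 the highest and air library 2 the lowest. The mean was 11010.1 ± 422 (SD, n = 3) in air-exposed and 11516 ± 848 in hyperoxia-exposed mice. The difference, hyperoxia minus air, was 0.06 on the log2 scale (SE 0.08, limma adjusted p = 0.57), with a 95% interval from −0.11 to 0.24, or 0.926 to 1.178 times the air level. No alternative called it, with adjusted p between 0.15 and 0.99.

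Slc12a2 (ENSMUSG00000024597.10, chr18:57878678-57946821) gave 1684, 1997 and 2208 in air libraries 1 to 3 and 2277, 1822 and 2583 in hyperoxia. The groups overlapped, and the spread within each was wide, from air library 1 to air library 3 and from hyperoxia library 2 to hyperoxia library 3. The mean was 1963 ± 264 (SD, n = 3) in air-exposed and 2227 ± 383 in hyperoxia-exposed mice. Hyperoxia minus air, 0.18 on the log2 scale (SE 0.14, limma adjusted p = 0.35), had the widest interval of the 7 genes, from −0.13 to 0.48. Without hyperoxia library 2 it was 0.31 and was called (adjusted p = 0.032), and after the length and GC correction it was −0.05 (adjusted p = 0.68), in a range of 0.032 to 0.77.

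The ratio of Slc12a5 to Slc12a2 did not separate the groups. It was 6.535, 5.305 and 5.179 in the air libraries and 5.428, 5.854 and 4.461 under hyperoxia, each in the order 1 to 3. Air library 1 had the highest ratio and hyperoxia library 3 the lowest, and the other 4 libraries lay between them with the groups mixed. The mean was 5.67 ± 0.749 (SD, n = 3) in air-exposed and 5.25 ± 0.714 in hyperoxia-exposed mice. The log2 difference was −0.11 (SE 0.16, exact two-sided permutation p = 0.6). The smallest p this design allows is 0.1. With each library left out in turn the difference stayed at or below 0, from −0.20 to −0.001, and the length and GC correction turned it to 0.05. Per kilobase of merged exons, Slc12a5 was 8.32 times as high as Slc12a2 in air and 7.70 times in hyperoxia. Per kilobase of the longest transcript these ratios were 6.14 and 5.68, so the level of the ratio depended on the length used. Its comparison between groups could not, because a length scales every library alike.

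**Figure D3:**
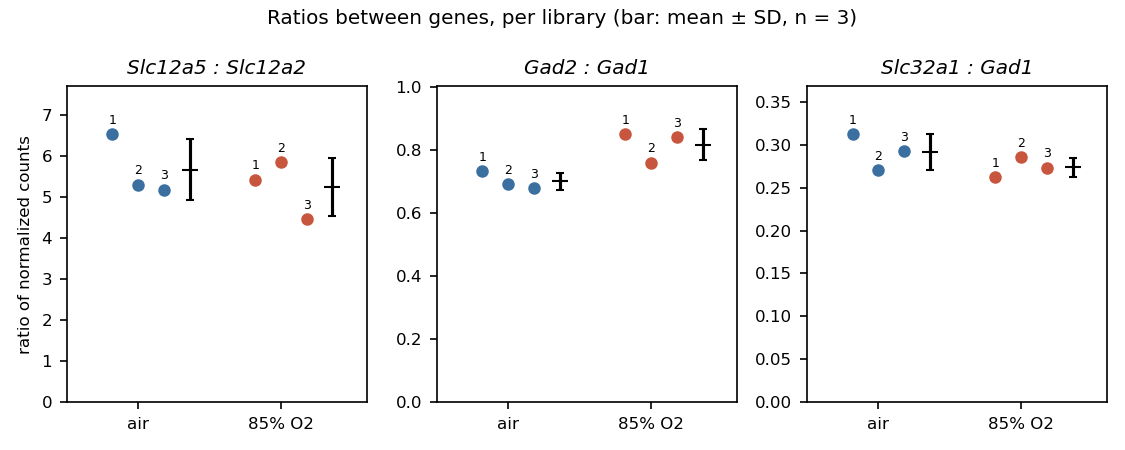
Ratio of normalized counts within each library (vertical axes, from 0) for 3 gene pairs, with points for libraries numbered as the deposited columns and bars for the mean ± SD (n = 3). The Slc12a5 to Slc12a2 values of the groups are mixed between 4.461 and 6.535, while the Gad2 to Gad1 values of hyperoxia, from 0.761, lie above those of air, up to 0.733.

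Levels were compared between the genes per kilobase of merged exons. In air the mean normalized count per kilobase was 1478.5 ± 56.7 (SD, n = 3) for Slc12a5 and 1287 ± 42.8 for Slc6a11. Abat followed with 1172 ± 84.2, Gad1 with 877 ± 26.9 and Gad2 with 800.0 ± 47.8. Slc32a1 had 697.5 ± 49.2 and Slc12a2 had 179.8 ± 24.2. The air libraries of Slc6a11 and Abat overlapped on this scale, as did those of Gad2 and Slc32a1, so neither pair has an order beyond its spread. In hyperoxia the libraries of Slc12a5 and Slc6a11 overlapped, from 1432 to 1659.8 and from 1346 to 1927, and so did those of Gad1 and Gad2, from 792 to 903 and from 866 to 936. The order rests on the length used: per kilobase of the longest transcript Abat had the highest mean in air (1958 ± 141) and Gad1 the next (1860.4 ± 57.1), ahead of Slc12a5 (1826.5 ± 70.1). The air libraries of these genes overlapped on that scale, so they have no order beyond their spread. They ran from 1855 to 2118 for Abat, 1797 to 1908 for Gad1 and 1757 to 1897 for Slc12a5. Slc12a2 was the lowest by both lengths and in both groups.

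Of 17 other genes of GABA metabolism and transport, all tested, 4 were higher, 2 were lower and 11 were not called in hyperoxia-exposed mice, a share near the 30.5% called among all genes tested, with a median log2 fold change of 0.19. Glud1, glutamate dehydrogenase, was 7218 ± 373 (SD, n = 3) in air-exposed and 11849.55 ± 1289.51 in hyperoxia-exposed mice, a rise of 0.71 on the log2 scale (SE 0.09, limma adjusted p = 9.3e-04). Slc38a2, a glutamine transporter, rose by 0.63 (SE 0.07, limma adjusted p = 6.9e-04). Aldh5a1, the dehydrogenase that acts after Abat on succinic semialdehyde, rose by 0.48 (SE 0.07, limma adjusted p = 0.0016), from 2603 ± 133 to 3632 ± 108 (SD, n = 3). Maob, monoamine oxidase B, fell by 0.37 (SE 0.08, limma adjusted p = 0.0069). All 4 were called under all 16 alternatives. The remaining called genes, named to complete the count after their values were seen, were Slc6a13 (GAT2) at 0.77 (limma adjusted p = 0.013) and Slc1a1, a neuronal glutamate transporter, at −0.22 (limma adjusted p = 0.029). Their calls were lost in 3 and 5 of the 16 alternatives.

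Of the remaining SLC12 transporters, 0 of 6 tested genes were called by limma, 0 by edgeR and 0 by DESeq2, and 0 at an unadjusted p under 0.05. Slc12a9 was at 0.08 (limma adjusted p = 0.54), Slc12a4 (KCC1) at 0.06 (0.62) and Slc12a7 (KCC4) at 0.13 (0.32), the latter without overlap of the groups. Slc12a8 and Slc12a3 were low, with air means of 30.06 and 13.0 and changes of 0.18 (0.56) and −0.16 (0.77). Slc12a1 (NKCC2), a kidney transporter, was below the filter, with a mean of 4.38 in air and 5.67 in hyperoxia.

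Of 15 regulators of the cotransporters, 2 were higher, 3 were lower and 10 were not called, again a share near the 30.5% of all genes tested, and the median log2 fold change was 0.21. Neto2, an auxiliary protein of KCC2 and of kainate receptors, was 1575 ± 70.6 (SD, n = 3) in air-exposed and 2640.15 ± 79.7 in hyperoxia-exposed mice. Its rise of 0.75 (SE 0.07, limma adjusted p = 3.3e-04) was the largest rise of the list. Oxsr1 (OSR1), a kinase that phosphorylates NKCC1 and the KCCs, rose by 0.43 (SE 0.09, limma adjusted p = 0.0065), from 1459 ± 31.5 to 1979.73 ± 218 (SD, n = 3). Wnk4, a chloride-sensitive kinase upstream of OSR1, fell by 0.83 (SE 0.11, limma adjusted p = 0.0011), from 316.5 ± 26.9 to 178 ± 5.65 (SD, n = 3). Egr4, a transcription factor that activates Slc12a5, fell by 0.67 (SE 0.11, limma adjusted p = 0.0028), from 1079 ± 160 to 672 ± 32.8 (SD, n = 3). These 4 genes were called under all 16 alternatives. Usf1, the E-box factor, was named after its values were seen and fell by 0.28 (limma adjusted p = 0.031), a call kept under 9 of the 16 alternatives. Rest, a repressor of Slc12a5, was at 0.28 (limma adjusted p = 0.092), and was called without hyperoxia library 2 (adjusted p = 0.024). Without hyperoxia library 2 the list held 12 called genes instead of 5, when 43.7% of all genes were called instead of 30.5%.

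**Figure D4:**
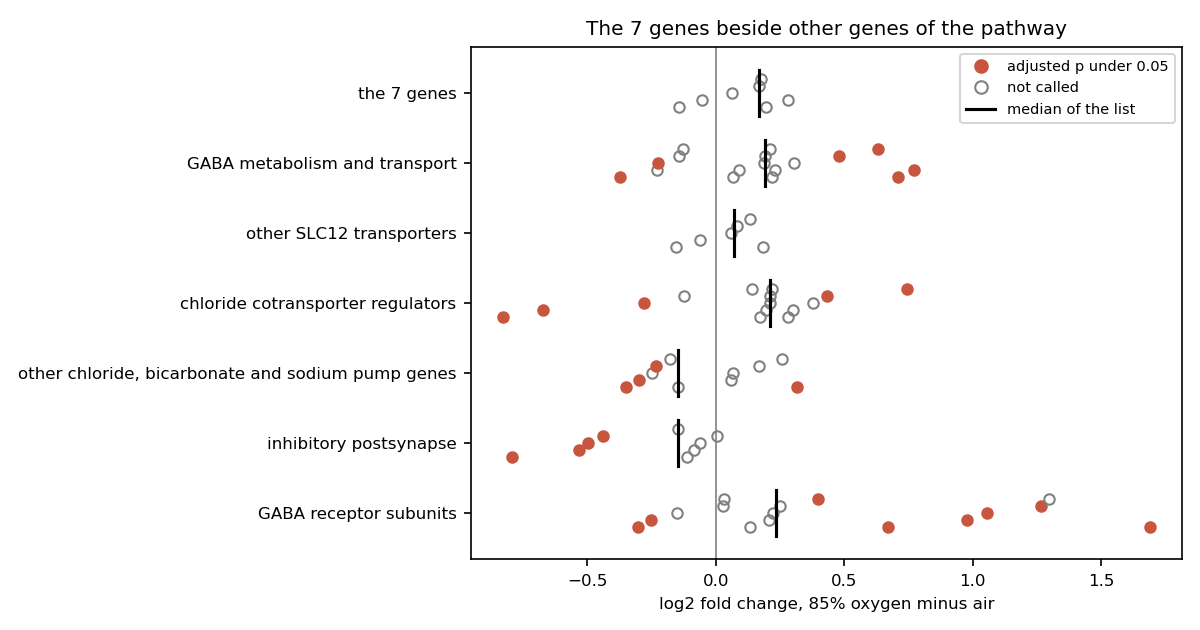
Log2 fold change, 85% oxygen minus air (horizontal axis), of the tested genes of the 7 examined and of 6 lists of pathway genes, with filled points for an adjusted p under 0.05 and a line at each list's median. None of the 7 genes is filled, while the lists of GABA metabolism and of cotransporter regulators hold filled points on both sides of 0.

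Of 11 genes of other chloride and bicarbonate transport and of the sodium pump, 1 was higher and 3 were lower. Over all genes tested, 14.9% were higher and 15.6% lower. Slc4a3, an anion exchanger, rose by 0.31 (SE 0.08, limma adjusted p = 0.018). The pump subunit Atp1b2 fell by 0.35 (limma adjusted p = 0.031), and the chloride channel gene Clcn2 fell by 0.23 (0.046). Each of these 3 calls was lost in at least 5 of the 16 alternatives. Without air library 1 or air library 2 the list held 0 called genes, when 17.2% and 17.3% of all genes were called.

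On the receiving side of the synapse, 4 of 9 genes of the inhibitory postsynapse were lower and 0 were higher in hyperoxia. Over all genes tested, 15.6% were lower and 14.9% higher. Shisa7, an auxiliary protein of GABA-A receptors, fell by 0.79 (SE 0.08, limma adjusted p = 3.3e-04), from 15329.62 ± 544 to 8852 ± 592 (SD, n = 3). Slitrk3, an adhesion protein of inhibitory synapses, fell by 0.53 (limma adjusted p = 0.0032). Insyn1, listed as 6030419C18Rik, fell by 0.44 (limma adjusted p = 0.0040). These 3 genes were called under all 16 alternatives. Of 16 tested GABA receptor subunit genes, 6 were higher and 2 were lower, against 14.9% and 15.6% of all genes tested. The smallest adjusted p values were those of Gabrg1 at 1.05 (limma adjusted p = 5.9e-04), Gabra3 at 0.98 (0.0011), Gabrg3 at 0.67 (0.0021) and Gabrq at 1.69 (0.0047). Gabrq was low, with a mean of 20.8 in air and 74.1 in hyperoxia. The 2 lower genes, named after their values were seen, were Gabra2 at −0.30 (limma adjusted p = 0.036) and Gabbr1 at −0.25 (0.027). Both lower calls were lost under quantile normalization and in limma without a trend.

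Marker genes of cell types and of neighbouring regions were counted beside these values. The count of each marker list stands against 14.9% higher and 15.6% lower among all genes tested. The interneuron list was mixed, with 4 of 17 genes higher, 3 lower and 10 not called, and its summed count overlapped between air (21529.8 to 25330.2) and hyperoxia (21856 to 29677). Sst (somatostatin) was 8008 to 10383 in air and 6482 to 11358 in hyperoxia (log2 fold change −0.11, limma adjusted p = 0.67), and was called without hyperoxia library 2 (−0.33, adjusted p = 0.034). Calb2 was at 0.09 (0.81). Reln rose by 0.75 (limma adjusted p = 0.0017). The other called genes, named after their values were seen, were Tac1, Erbb4 and Vip, which were higher, and Pvalb, Dlx5 and Htr3a, which were lower. Pvalb (parvalbumin) fell by 0.88 (SE 0.14, limma adjusted p = 0.0021). Hyperoxia library 2 had the highest sum of this list, and also the highest Gad1 of all libraries and the highest Slc32a1 of its group. Over all libraries Slc32a1 was highest in air library 1 (2109), and Gad2 in hyperoxia library 1 (5502, against 5244 in hyperoxia library 2). The part of these markers in the values of Gad1, Gad2 and Slc32a1 was not tested.

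The tissue held the hippocampal markers, with Slc17a7 (VGLUT1), Zbtb20 and Neurod6 the most abundant of the 10 excitatory markers. Of these 10 genes, 1 was higher and 5 were lower, with sums of 113110.5 to 119737 in air and 81591 to 101863 in hyperoxia. Slc17a7 and Neurod6 fell by 0.34 (limma adjusted p = 0.011) and by 0.75 (0.0014), and Zbtb20 was at −0.26 (0.37). The Slc17a7 call was lost in 3 of the 16 alternatives (−0.11, adjusted p = 0.24 under quantile normalization), and Zbtb20 was called after the length and GC correction (−0.62, adjusted p = 0.0043) and without hyperoxia library 3 (−0.56, adjusted p = 0.0019). The thalamus list moved the other way, with 5 of 8 tested genes higher and 0 lower, and with sums of 3803 to 4376 in air and 5956 to 8282 in hyperoxia. Slc17a6 (VGLUT2) rose by 1.72 (limma adjusted p = 1.1e-04), Ntng1 rose by 0.68 (0.038), and Prkcd was at −0.21 (0.37). The Ntng1 call was lost in 6 of the 16 alternatives. Tcf7l2 and Zic1, named after their values were seen, were highest in hyperoxia library 2, at 1085 and 1200.09. GAT3 is abundant in the thalamus, and Slc6a11 was highest in that same library. The part of thalamic RNA in the Slc6a11 values was not tested. No thalamic marker was at 0 in all libraries, and the defining gene Gbx2 stood between 2.05 and 12.4, with a mean below the filter.

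Among 12 astrocyte markers, 4 were higher and 2 were lower, with sums of 238664 to 251785.5 in air and 278578 to 287158 in hyperoxia, so that the sums did not overlap. The 3 most abundant did not move together: Slc1a2 (GLT-1) rose by 0.51 (limma adjusted p = 0.0080), Aldoc fell by 0.37 (0.024), and Slc1a3 (GLAST) was at −0.04 (0.74). Slc1a2 weighed most in the sums, at 98744 to 110995 in air and 132433 to 163351 in hyperoxia. The median log2 fold change of the list was 0.008, and with Slc1a2 taken out the sums of the groups overlapped. The Slc1a2 call was lost after the length and GC correction (0.18, adjusted p = 0.10) and the Aldoc call in 6 of the 16 alternatives (−0.20, adjusted p = 0.17 under quantile normalization). Oligodendrocyte markers fell in 11 of 12 genes, with sums of 227028 to 345480.1 in air and 155046 to 188492 in hyperoxia. Mbp and Mobp, both myelin genes, changed by −0.73 and −1.09 (limma adjusted p = 0.010 and 0.0019), and the Mbp call was lost under quantile normalization (−0.43, adjusted p = 0.065) and without air library 2 (−0.66, adjusted p = 0.053). The choroid plexus, which is rich in NKCC1, had 1 of 8 tested markers called (Aqp1, higher, named after its values were seen). Its defining gene Ttr was 272, 167 and 887 in air but 350.05, 183 and 7454 in hyperoxia, each in libraries 1, 2 and 3. Kl and Sostdc1, the next most abundant, were at −0.30 (0.23) and −0.14 (0.47), and without hyperoxia library 3 Kl was called at −0.49 (adjusted p = 0.032). Slc12a2 was highest in hyperoxia library 3 as well, and without that library its log2 fold change was 0.06 (adjusted p = 0.74). It was also 0.07 without air library 1 (adjusted p = 0.77), where Ttr was 272. Hyperoxia library 1, with Ttr at 350.05, stood above every air library in Slc12a2, at 2277. From high to low, both genes ranked the hyperoxia libraries 3, 1 and 2. In air both were highest in library 3, Slc12a2 at 2208, while Ttr was lowest in library 2 and Slc12a2 in library 1. The part of choroid plexus, astrocytes and oligodendrocytes in the values of Slc12a2, Slc6a11 and Abat was not tested.

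**Figure D5:**
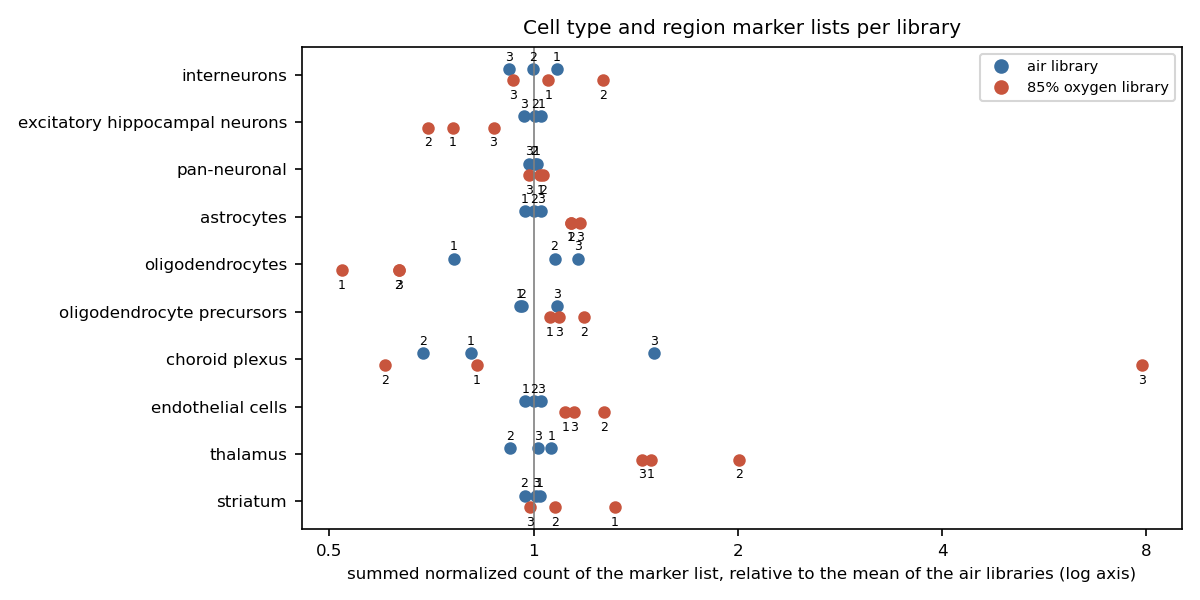
Summed normalized count of each marker list in each library, relative to the mean of the air libraries (horizontal log axis), with blue points for air and red points for 85% oxygen libraries numbered as the deposited columns. Thalamus sums are higher and oligodendrocyte sums lower in all hyperoxia libraries, and the choroid plexus sum of hyperoxia library 3 stands far to the right at 8466 counts.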

How the data were processed

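The study sequenced polyA-selected RNA of the left hippocampus, 1 animal per library, on a NextSeq 500. The submitters' notes name FastQC, STAR 2.5.3a, HTSeq and DESeq2, while no source used here gives the genome build. The authors deposited a signal per gene, read counts divided by size factors. Every value was a whole multiple (within 0.01 reads) of what 1 read was worth in its library, so reads were recovered from the deposited table. A second deposited table holds the authors' own fold changes and p-values and was not used.

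GENCODE M21 (GRCm38) supplied positions and lengths, with 99.7% of gene IDs matched. Genes with a mean of at least 10 were tested with limma 3.58.1 (R 4.3.3) on log2(value + 1), with Benjamini-Hochberg adjustment. This scale understates changes of low genes. Alternatives were pseudocounts of 0.5 and 5, no filter or a mean of at least 50, quantile and TMM normalization, no trend, edgeR 4.0.16, DESeq2 1.42.0, a length and GC correction, and each library left out. The Slc12a5 to Slc12a2 ratio was tested by exact permutation over 20 regroupings. The fit was tested on simulated data. The genes and lists were chosen with earlier results of these data known. The text names the 7 genes, up to 4 called genes of each pathway list by smallest adjusted p, all SLC12 genes, the 3 most abundant genes of each marker list, and the 2 genes most like each of the 7. Others are said to be named after their values were seen. Some genes that this rule names are not reported here.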

Additional observations from a re-analysis of the deposited data

How the results depend on the processing

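Of 112 values of the 7 genes over 16 alternatives, 104 kept direction and side of the threshold, 6 became called and 2 turned direction. The count of called genes among the 7 was 1 instead of 0 under quantile normalization (Abat), DESeq2 and the length and GC correction (both Slc6a11). It ranged from 0 to 2 with a library left out, reaching 2 without hyperoxia library 2 (Slc12a2 higher, Slc32a1 lower) and 1 without hyperoxia library 3 (Slc6a11). With a library left out, all called genes ranged from 3056 (without air library 1) to 7771 (without hyperoxia library 2), against 5425. Called genes of the pathway and marker lists ranged from 53 (without air library 2) to 113 (without hyperoxia library 2), against 85, and the ratio difference from −0.20 to −0.001. The cause was not tested. No paired analysis was possible because the column numbers are not the animals' numbers and pair no samples.

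Under the length and GC correction the log2 change turned direction for Gad2 (−0.0247), Slc12a2 (−0.0504), the Slc12a5 to Slc12a2 ratio, hyperoxia minus air (0.052), Slc12a7 (−0.0008), Sst (0.0947), the Slc32a1 to Gad1 ratio, hyperoxia minus air (0.0435) and Olig1 (0.1091), and under quantile normalization for Slc1a3 (0.1524) and Olig1 (0.0019). With each library left out, changes that turned direction ranged from −0.4162 to 0.0173 for Slc12a3 (turned without air 2), from −0.011 (without hyperoxia 2) to 0.1461 for Slc12a9, from −0.3289 to 0.0756 for Sst (turned without hyperoxia 3), from −0.2624 to 0.2777 for Calb2 (turned without air 3 or hyperoxia 2), from −0.0658 to 0.001 for Slc1a3 (turned without hyperoxia 1), from −0.1416 to 0.0427 for Olig1 (turned without air 3, hyperoxia 1 or hyperoxia 3) and from −0.4353 (without hyperoxia 3) to 2.233 for Ttr. Without hyperoxia library 2 the called genes numbered 12 among cotransporter regulators (5 with it, 8 by DESeq2), 9 among other chloride genes (4), 11 among interneuron genes (7) and 4 among oligodendrocyte precursor genes (2). Of all genes tested, 43.7% were called without that library, 17.3% without air library 2 and 30.5% with all libraries. Without air library 2 they numbered 0 of other chloride genes, 4 of GABA receptor subunits (8 with it), 4 of interneuron, 3 of pan-neuronal (7), 7 of oligodendrocyte (11), 4 of endothelial (8) and 2 of thalamus genes (5). Without air library 1, air library 3 or hyperoxia library 1 they numbered 4 or 5 of receptor subunits, 4 of pan-neuronal and 3 of thalamus genes, and without hyperoxia library 1 also 4 of interneuron genes. Choroid plexus calls ranged from 0 to 2. Calls were also lost for Vip in 6, Dlx5 in 5, Htr3a and Tcf7l2 in 4, Slc2a1 in 3 and Ppp1r1b in 1 of the 16 alternatives.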

Other observations

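Further marker lists were counted, again against 14.9% higher and 15.6% lower among all genes tested. Of 10 pan-neuronal genes, 3 were higher and 4 lower, and their sums overlapped (233602 to 239538 in air, 233490.3 to 244523 in hyperoxia). Snap25, a protein of vesicle fusion, fell by 0.40 on the log2 scale (limma adjusted p = 0.011), Map2, a dendritic protein, rose by 0.49 (0.0037), and Syt1, a calcium sensor of release, was at 0.26 (0.058). The Snap25 call was lost under quantile normalization (−0.15, adjusted p = 0.20) and without air library 1 or air library 2, and Syt1 was called in 5 of the 16 alternatives, at 0.33 (adjusted p = 0.0037) without hyperoxia library 2. Of 9 oligodendrocyte precursor genes, 2 were higher and 0 lower. These were Pdgfra at 0.58 (limma adjusted p = 5.9e-04) and Cspg4 at 0.41 (0.0076), the latter named after its values were seen, while Gpr17 was at 0.19 (0.12) and Olig1 at −0.03 (0.85).

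Of 11 endothelial genes, 6 were higher and 2 lower. Slc2a1 (GLUT1) rose by 0.36 (limma adjusted p = 0.015), Cldn5 rose by 0.57 (0.0030), and Flt1 was at 0.19 (0.14). Of 8 tested striatal genes, 3 were higher and 2 lower, with sums of 2147 to 2259 in air and 2189 to 2916 in hyperoxia. Ppp1r1b (DARPP-32) fell by 0.39 (limma adjusted p = 0.0087), Penk fell by 0.85 (5.9e-04), and Rgs9 rose by 0.51 (0.0040).

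The genes whose log2 values followed each of the 7 most closely over the 6 libraries are given as a description, since 6 points that share library and group allow high values among so many genes. Pearson's r was 0.995 for Edc4 and 0.992 for Snap47 with Gad1, and 0.992 for Slc22a6 and 0.987 for Adamts15 with Gad2. For Slc32a1 it was 0.997 with Rab5c and 0.994 with Letm1, and for Slc6a11 0.998 with F8a and 0.996 with Megf11. For Abat it was 0.996 with Lta4h and 0.98 with Kdelc2. For Slc12a2 it was 0.989 with Ints6l and 0.983 with Ccdc159, and for Slc12a5 0.985 with Ptpru and 0.982 with Pcdhga8.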
